A study of Mus musculus with 8 samples.

Results

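Olfactory receptor (OR) genes encode the odorant receptors of the nose and lie in long tandem arrays on many mouse chromosomes. In a mature olfactory neuron a single OR gene is expressed, and the silent arrays, packed in heterochromatin, gather with each other across chromosomes. In embryonic stem cells the arrays are silent too, but no choice of receptor takes place. OR arrays are poor in active genes and rich in L1 repeats (LINE-1 retrotransposons), which makes them typical members of the B compartment, the inactive class of chromatin in Hi-C maps.

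The members are 7 large OR clusters, delimited by their position in the genome, and no contact value enters the rule. They cover 38 of the 5093 bins of 500 kb that passed a filter on coverage (mouse build mm9), and no OR bin failed it. The chr2 cluster lies at chr2:85000001-90000000 (10 bins) and the chr7 cluster at chr7:109500001-115500000 (12 bins). The chr9 cluster spans chr9:37500001-40000000 (5 bins) and the chr19 cluster chr19:12000001-14000000 (4 bins). The chr17 cluster spans chr17:37000001-38500000 (3 bins). The smallest clusters, of 2 bins each, lie at chr10:128500001-129500000 and chr16:58500001-59500000. The 21 pairs of clusters hold 571 pairs of OR bins on different chromosomes.

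The contacts were measured by sisHi-C, a Hi-C protocol for small cell numbers, in mouse embryonic stem cells (mESCs). Cells were nucleofected with 5 nmol per 100 μl of an antisense morpholino oligo against L1 RNA (L1 AMO) or of a scrambled oligo (SCR AMO), sorted at 12 h for uptake and harvested at 36 h. Each group has 2 samples, from 2 independent transfections by the study's account, and the control cells underwent the same nucleofection and sort. The question was whether the mutual contacts of the OR clusters, and their contacts along their own chromosomes, differ between the groups. The 2 oligos define the groups, and are given 5′ to 3′ in lower case as the study lists them, with no part set in capitals.
L1 AMO: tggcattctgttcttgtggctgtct
SCR AMO: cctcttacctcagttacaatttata

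Depth ran from 22252054 contacts (SCR AMO 2) to 112381720 (SCR AMO 1). Between 14.2% and 15.8% of the contacts joined different chromosomes in L1 AMO, and between 22.3% and 22.8% in SCR AMO. The totals of the SCR AMO matrices depart from the study's tabulated valid pairs while those of L1 AMO are close to them, so the AMO and the making of the matrices cannot be told apart. An exact permutation test, two-sided, of 2 samples per group cannot go below p = 0.333, which is its value for every single measure below in which the groups do not overlap. Values are given in the order SCR AMO 1, SCR AMO 2, L1 AMO 1 and L1 AMO 2.

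The arrays matched to the clusters in another build hold OR genes in number, though no gene was placed at the mm9 positions. In the RefSeq annotation of build GRCm38, the largest OR array of chromosome 2 has 293 OR genes, 222 of them protein-coding (for example Olfr1140). The chr7 array has 238 OR genes and encloses the beta-globin genes (Hbb-bt, Hbb-bs) and genes of the Trim family of antiviral proteins. The chr9 array has 127, the chr19 array 91, the chr10 array 69, the chr17 array 58 and the chr16 array 32. Inside the chr17 array lie H2-M2 and H2-M3, class I genes of the major histocompatibility complex. The arrays were matched to the clusters by chromosome and size rank, since the builds differ.

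All 38 OR bins carried the B label by the sign of eigenvector 1, the vector that splits each chromosome into A and B chromatin. Their median eigenvector value was -1.24, against -1.06 for the 2598 other B bins of the autosomes, and 24 of the 38 lay in the lowest 20% of their chromosome. The chr2 cluster was deepest in B, with a median at the 4.08th percentile of its chromosome and values from -1.39 to -1.16. The bins nearest to 0 were the first of the chr17 cluster (-0.16), next to the histocompatibility region, and 2 bins of the chr7 cluster (-0.27 and -0.47). Coverage of the OR bins ran from 0.146 to 1.18 of the chromosome's median, and the lowest value belongs to the bin at 113 to 113.5 Mb of the chr7 cluster.

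The OR clusters touched each other more often than other B chromatin did. Trans contact was expressed as observed/expected, the mean balanced frequency of a class of bin pairs over that of all pairs of autosomal bins on different chromosomes. For pairs of OR bins it was 1.12, 1.27, 1.26 and 1.2. Pairs of other B bins had 0.900, 0.915, 0.976 and 1.01. The OR-OR value stood at 1.25, 1.39, 1.29 and 1.18 times the B-B value, above 1 in all 4 samples. OR bins with other B bins lay between these classes in every sample, at 0.972, 1.00, 1.04 and 1.08. OR bins with A bins had 0.820, 0.845, 0.798 and 0.815, close to other A-B pairs, at 0.820, 0.843, 0.817 and 0.827.

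The value over that of B-B pairs was above 1 under each of 11 other ways of computing it, in all 4 samples, with ratios from 1.06 to 2.07. It was smallest when contacts between chromosomes were balanced alone (1.08, 1.19, 1.16 and 1.06). With the value of each pair of chromosomes as the expected one, it was 1.16, 1.31, 1.25 and 1.17. It was largest without the chr2 and chr7 clusters, where the 5 smaller clusters alone gave 1.70, 2.07, 1.75 and 1.67. The OR-OR value rests on 1110, 269, 449 and 336 contacts. The 95% Poisson interval of the count in SCR AMO 2, the shallowest sample, was 237.8 to 303.1. Such intervals cover counting error only.

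**Figure D1:**
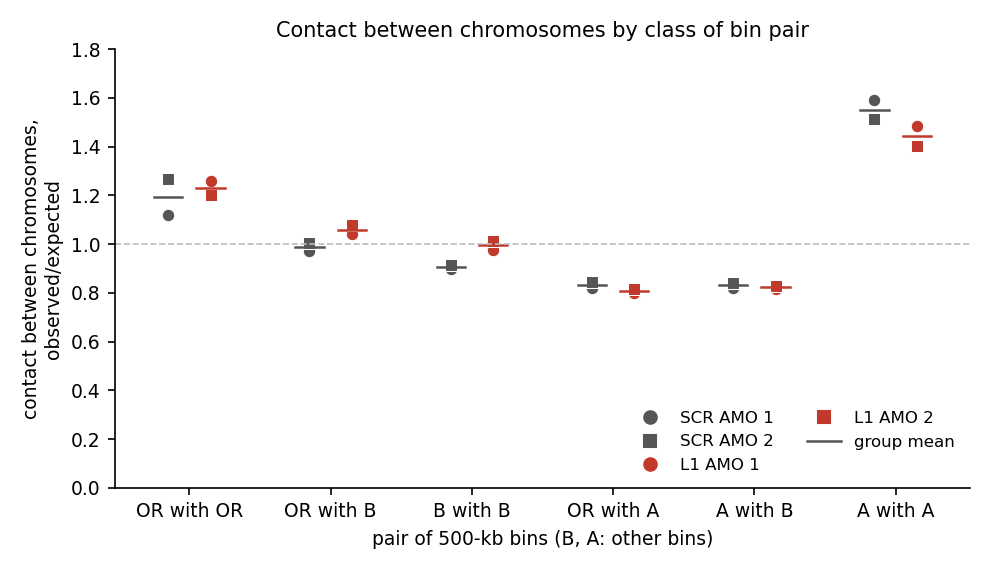
Observed/expected contact between chromosomes (y axis, no unit) for 6 classes of pairs of 500-kb bins (x axis), with 1 point per sample and a bar for the mean of the 2 samples of a group. OR-OR pairs sit at 1.12 to 1.27, above the B-B pairs of the same samples (0.900 to 1.01) and above OR-A pairs (0.798 to 0.845).

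Between the groups, mutual contact of the OR clusters did not separate. It was 1.19 ± 0.104 (SD, n = 2) in SCR AMO and 1.23 ± 0.0415 (SD, n = 2) in L1 AMO, a log2 ratio of 0.04, and single L1 AMO samples over single SCR AMO samples gave -0.08 to 0.17. The sign of this ratio was negative with contacts between chromosomes balanced alone (-0.03), and without SCR AMO 1 (-0.04). Scaled to all contacts, the log2 ratio was -0.48 and the groups did not overlap, a scale on which contacts between chromosomes make up less of the L1 AMO total. The OR-OR over B-B ratio likewise overlapped, with a log2 ratio of -0.09 (range -0.23 to 0.05).

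Contact of the OR clusters with other B bins did not overlap between groups and was higher in L1 AMO, by 0.10 on the log2 scale (range 0.05 to 0.15). B-B pairs differed by 0.13 (range 0.09 to 0.17). These differences are relative to the mean contact between chromosomes of each sample. Scaled to all contacts, OR-A contact had a log2 ratio of -0.57, and OR-B and B-B contact were not computed on that scale. OR-A contact was lower in both L1 AMO samples, with a log2 ratio of -0.05 (range -0.08 to -0.01, and -0.02 without SCR AMO 2 or -0.03 without L1 AMO 1). The OR-A values overlapped with contacts between chromosomes balanced alone (-0.01). The preference of OR bins for B over A bins of other chromosomes was 1.185 and 1.187 in SCR AMO and 1.304 and 1.324 in L1 AMO, a log2 ratio of 0.15. The same ratio for other B bins was 1.097 and 1.086 in SCR AMO and 1.194 and 1.226 in L1 AMO, so it was higher in L1 AMO for both kinds of B chromatin.

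The excess of mutual contact was seen in most bins, but not in every cluster. In SCR AMO the chr19 cluster alone had none, with 1.255 and 1.259 with the other clusters against 1.297 and 1.271 with other B bins. In L1 AMO it had 1.544 and 1.507 against 1.271 and 1.265. Averaged over the 2 samples of a group, 32 of the 38 OR bins in SCR AMO and 29 of 38 in L1 AMO had more contact with OR bins than with other B bins of other chromosomes. In single samples the count was 29, 28, 30 and 22 of 38. Other B bins met the OR bins more than B bins at large in 66%, 60%, 58.7% and 57.5% of cases, and A bins in 50.6%, 48.4%, 42.4% and 45.6%. The count of OR bins was above the share of other B bins by little in L1 AMO 2 (57.9% against 57.5%). Of single bins, the one at 128.5 to 129 Mb in the chr10 cluster had the highest value in SCR AMO (2.10). In L1 AMO the bin at 110.5 to 111 Mb in the chr7 cluster was highest (1.88).

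**Figure D2:**
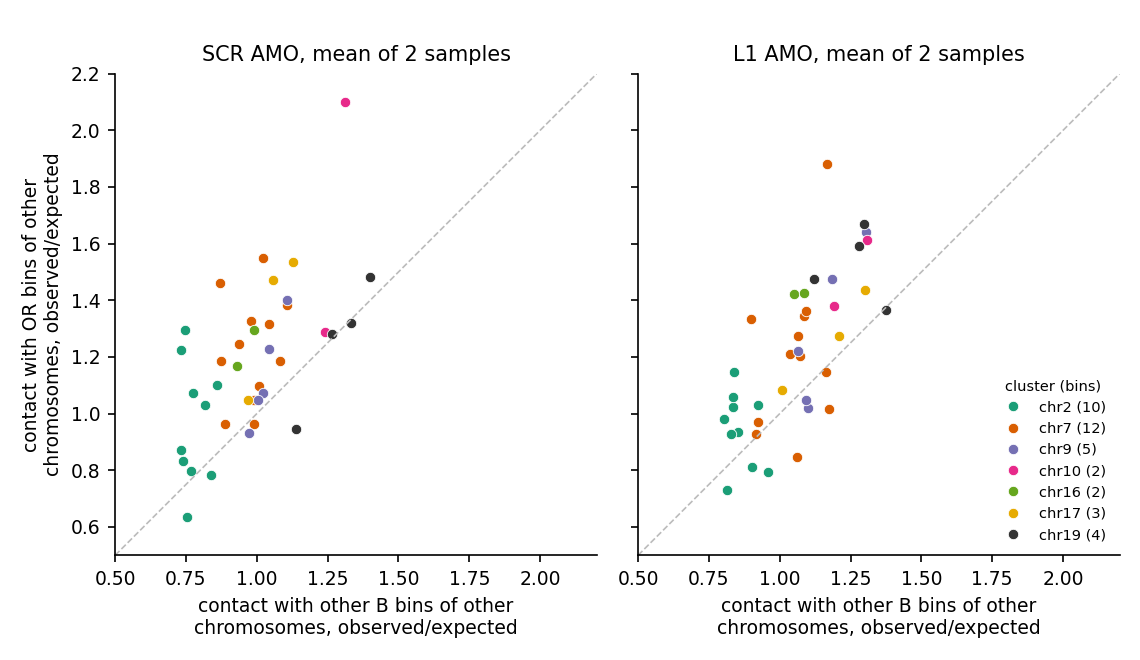
Observed/expected contact of each of the 38 OR bins with OR bins (y axis) and with other B bins (x axis) of other chromosomes, in SCR AMO (left) and L1 AMO (right), as means of 2 samples, coloured by cluster. Of the 38 points, 32 on the left and 29 on the right lie above the dashed line of equal contact, and the chr2 bins lie farthest to the left in the SCR AMO panel.

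The clusters differed in how much they met the others. The chr2 cluster, the array with the most OR genes, had the lowest contact with the other clusters, at 0.911, 1.02, 0.934 and 0.953. This rank depends on the scaling, and in SCR AMO the chr19 cluster was lowest with contacts between chromosomes balanced alone (1.03 and 0.986) and with the value of each pair of chromosomes as the expected one (0.923 and 0.964). With other B bins, too, the chr2 cluster had the lowest contact, at 0.739, 0.813, 0.827 and 0.892. It was the cluster with the smallest share of its contacts between chromosomes, at 17.3% and 19.8% in SCR AMO and 14.2% and 13.8% in L1 AMO. The chr10 cluster ends 0.5 Mb before the end of its chromosome and had the highest contact with the other clusters in SCR AMO, at 1.62 and 1.76, against 1.38 and 1.62 in L1 AMO. The chr19 cluster had the largest share of contacts between chromosomes, at 32.6% and 33.0% in SCR AMO and 22.4% and 20.5% in L1 AMO. It was also the cluster with the most contact with A bins of other chromosomes (1.22, 1.19, 1.04 and 1.03).

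In 3 of the 7 clusters the contact with the other clusters did not overlap between groups, higher in 2 and lower in 1. Among 292 other B segments of at least 2 bins, contact with the OR bins was higher in 37.7% and lower in 9.93%. The chr19 cluster was higher in L1 AMO, with 1.25 and 1.26 in SCR AMO against 1.54 and 1.51, a log2 ratio of 0.28. The chr9 cluster was higher as well, with 1.07 and 1.21 against 1.27 and 1.29, a log2 ratio of 0.17. The chr10 cluster was lower, with a log2 ratio of -0.18, though its nearest values (1.623 in SCR AMO 1 and 1.618 in L1 AMO 2) all but met. The chr2, chr7, chr16 and chr17 clusters overlapped, with log2 ratios of -0.03, -0.02, 0.21 and -0.10. Scaled to all contacts, all 7 clusters had a lower mean in L1 AMO, 6 of them without overlap. The share of other B segments on that scale is not given here. The direction of the chr19 and chr9 clusters thus holds only relative to the other contacts between chromosomes. With the first matrix of each L1 AMO sample alone, the chr9 ratio was 0.00 and the groups overlapped, as they did without balancing (0.09), while the chr19 ratio was 0.17 and 0.23 and they did not.

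Values of single clusters with B and A bins are likewise relative to the mean contact between chromosomes. With the other B bins of other chromosomes, 5 of the 7 clusters had higher contact in L1 AMO without overlap, beside 78.8% of the other B segments. Their log2 ratios ran from 0.10 (chr7) to 0.16 (chr9 and chr17). The exceptions were the clusters that already had the most contact with B bins, chr10 (1.28, 1.27, 1.23 and 1.27) and chr19 (1.297, 1.271, 1.271 and 1.265). With the A bins of other chromosomes, 4 of the 7 clusters were lower without overlap, beside 54.8% of the other B segments. The chr19 cluster had the largest drop (-0.22). The chr17 cluster had 1.02, 1.02, 0.940 and 0.957 with A bins (-0.11), and the chr7 and chr9 clusters -0.03 and -0.04. The chr2 cluster had 0.578, 0.649, 0.616 and 0.660 and overlapped, as did the chr10 and chr16 clusters.

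Bins of the same array differed among themselves. In the chr17 cluster, the bin at 37 to 37.5 Mb, on the side of the histocompatibility region, met A bins more than B bins of other chromosomes, with 1.26 against 0.969 in SCR AMO and 1.13 against 1.01 in L1 AMO. The following 2 bins had 0.899 and 0.900 with A bins and 1.13 and 1.06 with B bins in SCR AMO. In the chr7 cluster the bins at 112.5 to 113 Mb and at 114.5 to 115 Mb, those nearest to 0 on eigenvector 1, had the highest contact with A bins of the array in SCR AMO (0.9423 and 0.9748). In L1 AMO the bin at 109.5 to 110 Mb was above them, with 0.959 against 0.900 and 0.901. In the chr19 cluster contact with A bins went down along the array, from 1.39 to 1.2, 1.13 and 1.09 in SCR AMO and from 1.24 to 1.05, 0.956 and 0.892 in L1 AMO. The chr2 bins were alike in contact with B bins (0.732 to 0.858 in SCR AMO) but ranged from 0.635 to 1.295 in contact with OR bins, for which counts per bin are low.

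Of the 21 pairs of clusters, 15 had an observed/expected above 1 in the SCR AMO mean and 15 in the L1 AMO mean, and 11 were above 1 in every sample. Divided by the value of the pair of chromosomes, 13 were above 1 in SCR AMO and 17 in L1 AMO. The median pair had 1.29 in SCR AMO and 1.45 in L1 AMO. Over 45918 pairs of other B segments on different chromosomes with 4 to 120 bin pairs, the range of the cluster pairs, the medians were 0.939 and 1.00. Of these B-B segment pairs, 43.1% were above 1 in the SCR AMO mean and 50% in the L1 AMO mean. The matching shares in every sample and after the division are not given here. A segment is a run of neighbouring bins with the same compartment label. The 6 pairs among the clusters of chromosomes 9, 10, 17 and 19, picked out after their values were seen, had SCR AMO means of 1.70 to 2.08. The 6 pairs with the chr2 cluster had 0.674 to 1.26. Divided by the value of the pair of chromosomes, the ranges were 1.17 to 1.83 and 0.590 to 1.41. In SCR AMO 1 alone, chr10-chr19, chr10-chr17 and chr9-chr10 had 1.07, 1.11 and 1.26. The others among chromosomes 9, 10, 17 and 19 had 1.705 to 2.063 in that sample.

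The pair of highest SCR AMO mean was chr9-chr19, with 2.06, 2.10, 1.92 and 1.78. Divided by the value of the pair of chromosomes its SCR AMO mean was 1.46, and chr7-chr10 was highest, at 2.11. Without that division, the pair after chr9-chr19 was chr7-chr10, with 2.39, 1.68, 1.31 and 1.43. Then came chr10-chr19, with 1.07, 2.92, 2.41 and 2.66, where SCR AMO 1 stood apart from the other 3 samples. These pairs rest on few contacts, 82, 17, 27 and 19 for chr9-chr19 and 16, 9, 13 and 11 for chr10-chr19. The lowest pairs all included the chr2 cluster. They were chr2-chr19 (0.809, 0.539, 0.980 and 0.760), chr2-chr9 (0.568, 0.786, 0.958 and 0.942) and chr2-chr17 (0.893, 0.662, 0.728 and 1.07).

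**Figure D3:**
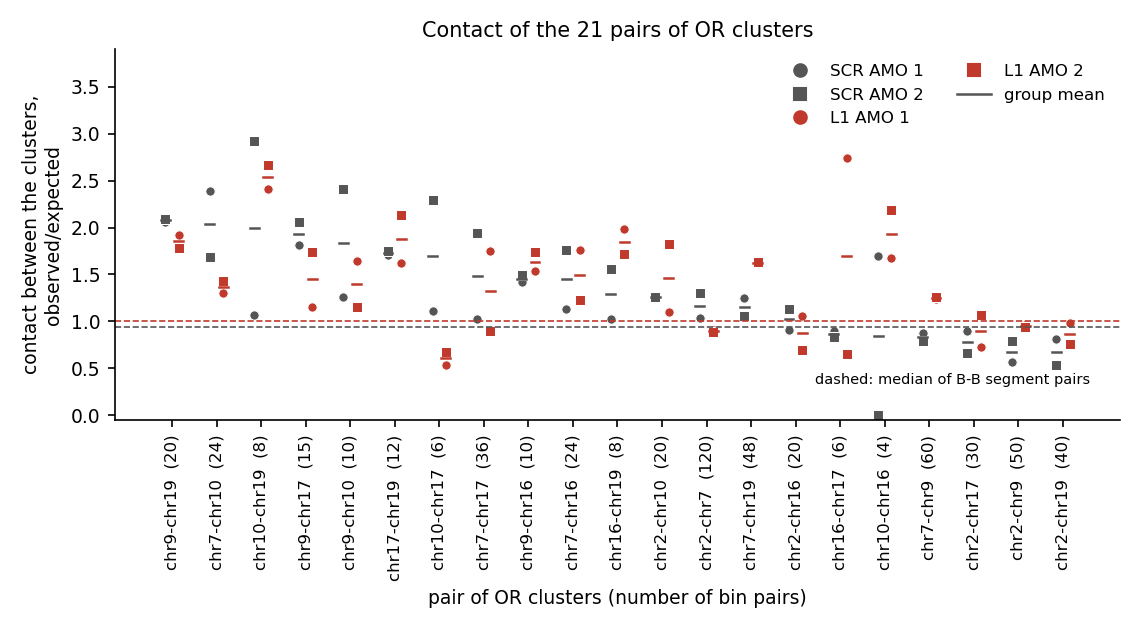
Observed/expected contact (y axis, no unit) of the 21 pairs of OR clusters (x axis, with the number of bin pairs), 1 point per sample and a bar for the mean of a group, ordered by the SCR AMO mean. The medians of B-B segment pairs (0.939 in SCR AMO, 1.00 in L1 AMO) are dashed. Of the SCR AMO means, 15 of 21 lie above 1, beside 43.1% for B-B segment pairs. The small pairs have the widest spread between samples.

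The groups did not overlap in 10 of the 21 pairs, with L1 AMO above in 5 and below in 5. Among the B-B segment pairs, L1 AMO lay above in 23.3% and below in 13.5%. Of the 3 largest rises in group mean, chr7-chr9 alone did not overlap between groups (0.878 and 0.795 in SCR AMO, 1.23 and 1.26 in L1 AMO). The pair chr10-chr16 had 11, 0, 4 and 4 contacts, and its values (1.70, 0, 1.68 and 2.18) overlapped. The pair chr16-chr17 had 2.74 in L1 AMO 1 and 0.649 in L1 AMO 2, so its mean rests on 1 sample. The 3 largest drops were chr10-chr17 (1.11, 2.29, 0.538 and 0.675), chr7-chr10 and chr9-chr17 (1.81, 2.06, 1.16 and 1.74). None of these 3 overlapped between groups, but chr10-chr17 rests on 12, 5, 2 and 2 contacts.

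A test of the counts called none of these pairs. Raw counts of all pairs of segments on different autosomes were fitted with edgeR's quasi-likelihood test, and 17 of the 21 cluster pairs reached a mean of 10 contacts. At an FDR of 0.05 edgeR called 0 of the 17, and 2 of the 17 had an unadjusted p under 0.05. Over all 144490 pairs of segments tested, edgeR called 8.74%, and among B-B pairs 11.3%. DESeq2 also called 0 of the 17, but only 1728 of all 144490 pairs. The smallest Benjamini-Hochberg adjusted p from edgeR was 0.172, for chr2-chr9, whose log2 fold change was 0.61. The median log2 fold change of the 17 pairs was 0.20 (-0.19 without SCR AMO 1), beside 0.18 for B-B pairs and 0.00 for all pairs. Scaled to the totals of all contacts, 4 of the 17 pairs were called lower in L1 AMO, and the median of all pairs moved to -0.58, with the 17 pairs at -0.39.

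In the same fit, pairs of an OR cluster and a B segment of another chromosome rose far more often than they fell. Of 1567 such pairs tested, 111 rose in L1 AMO (7.08%) and 4 fell (0.255%). Other B-B pairs rose in 11.1% of cases and fell in 0.198%. Pairs of an OR cluster and an A segment rose in 36 and fell in 36 of 1326 cases (2.71% each), while other A-B pairs rose in 5.33% and fell in 1.58%. These directions are relative to the other contacts between chromosomes. On the scale of all contacts, 63388 of the 144490 pairs were called lower and 1025 higher. The rates by class are edgeR's with all 4 samples. DESeq2 called 1728 of the 144490 pairs (1313 higher, 415 lower). Without SCR AMO 1, the deepest sample, edgeR called only a small part of these pairs, so the rates depend on that sample.

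Along their own chromosomes the OR clusters had more of their contacts at middle distances in L1 AMO. The share of balanced contact between 2 and 10 Mb was higher in both L1 AMO samples in all 7 clusters, by 1.35 (chr10) to 3.66 (chr19) percentage points. In the chr2 cluster it was 11.7% and 11.2% in SCR AMO and 14.6% and 14.7% in L1 AMO. Among the 292 other B segments, 99.7% did the same, with a median difference of 2.93 points, so the clusters' count is that of the background. The share beyond 10 Mb, averaged over the clusters, was 22.0% and 20.9% in SCR AMO and 20.3% and 20.3% in L1 AMO. This mean differed by -1.11 points in L1 AMO (-0.55 without SCR AMO 1), and the clusters of chromosomes 7, 16, 17 and 19 were each lower without overlap, as were 69.9% of the other B segments. The chr17 cluster differed most, with 23.8% and 23.0% against 21.02% and 20.39%. With a limit of 5 Mb in place of 10 Mb, the difference of the mean was -0.06 points and the groups overlapped.

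**Figure D4:**
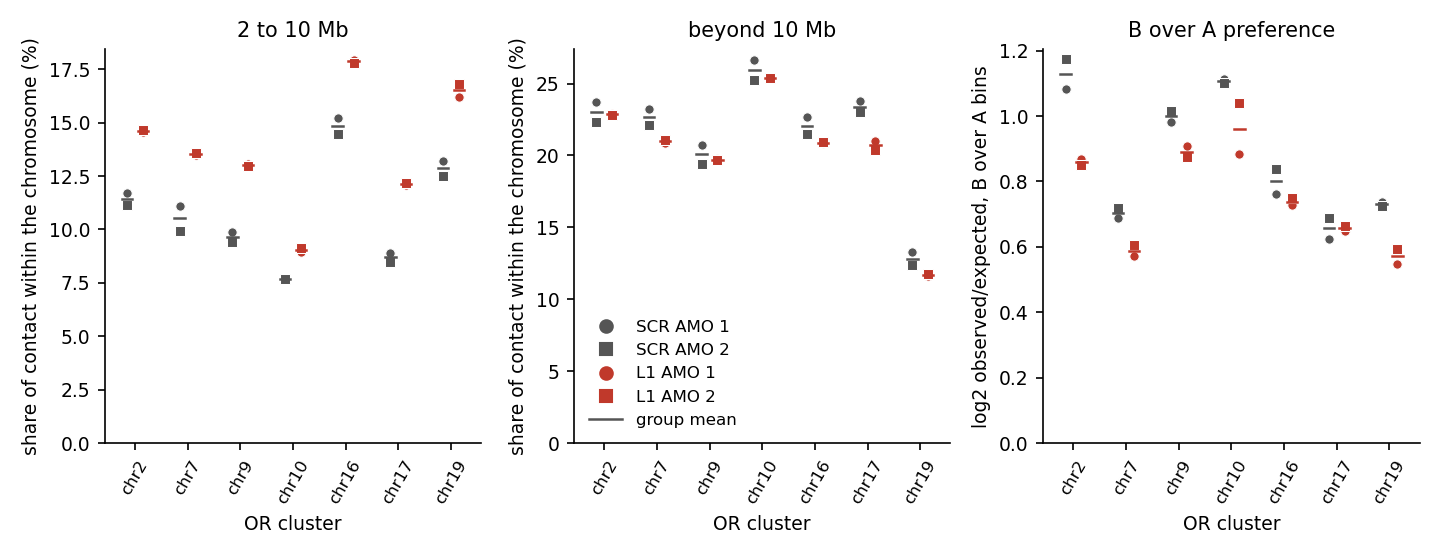
Share of the contact within the chromosome at 2 to 10 Mb (left, %) and beyond 10 Mb (middle, %), and log2 observed/expected with B bins over that with A bins (right), for the 7 OR clusters, 1 point per sample and a bar for each group mean. The L1 AMO points lie above the SCR AMO points at 2 to 10 Mb in all 7 clusters and below them in the B over A preference in 6 of 7, all but chr17.

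The preference of the clusters for B bins of the same chromosome was weaker in L1 AMO. It was taken as the log2 of observed/expected with B bins over that with A bins beyond 2 Mb, where the expected value is the chromosome's mean at the same distance. Averaged over the 7 clusters it was 0.855 and 0.894 in SCR AMO and 0.737 and 0.768 in L1 AMO, a difference of -0.12 (range -0.16 to -0.09). Both L1 AMO samples were lower in 6 of the 7 clusters, but without balancing in 2 (chr2 and chr19), with chr17 higher (0.12) and 4 overlapping. Among the other B segments 41.4% were lower and 39.4% higher, with a median difference of -0.01. The other B segments had a lower preference to begin with (median 0.490 in SCR AMO, against 0.656 to 1.13 for the clusters). Without balancing, the difference of the mean was -0.04 and the groups overlapped, and with limits widened by 1 bin it was -0.05.

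The chr2 cluster differed most, from 1.08 and 1.17 in SCR AMO to 0.869 and 0.850 in L1 AMO. Its observed/expected with A bins was 0.532 and 0.498 in SCR AMO and 0.621 and 0.632 in L1 AMO, a log2 ratio of 0.28, while that with B bins was 1.13, 1.12, 1.13 and 1.14. The chr10 cluster differed in the same way (1.112, 1.101, 0.884 and 1.039), with more contact with A bins by 0.25 and with B bins by 0.10 on the log2 scale. In the chr7, chr9 and chr19 clusters contact with A bins was higher by 0.09, 0.14 and 0.12. The chr16 cluster overlapped in A contact (0.730, 0.692, 0.716 and 0.705) and was lower in B contact, with a log2 ratio of -0.06. The preference of the chr17 cluster overlapped between groups (0.624, 0.689, 0.649 and 0.664). Over all clusters, contact with A bins was higher without overlap in 5 of 7, beside 60.6% of the other B segments.

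Contact with nearby A bins was higher in L1 AMO. Between 2 and 5 Mb, each of the 5 clusters with at least 10 such bin pairs had more contact with A bins in both L1 AMO samples, by 0.25 to 0.78 on the log2 scale (median 0.30). Between 5 and 10 Mb all 6 did, by 0.20 to 0.41 (median 0.31). Of the other B segments, 74.8% and 65.2% did so at these distances, with medians of 0.12 and 0.11. B bins at 2 to 5 Mb differed by -0.09 to 0.01 in the 6 clusters that had them. For the chr2 cluster and A bins at 10 to 20 Mb, observed/expected was 0.563 and 0.533 in SCR AMO and 0.715 and 0.752 in L1 AMO. The chr17 cluster had the extreme values at both ends, 0.284, 0.280, 0.451 and 0.518 with A bins at 2 to 5 Mb (18 bin pairs) and 0.879, 0.895, 0.727 and 0.706 with those at 10 to 20 Mb (42 bin pairs). Without the 2 to 5 Mb value of chr17, the largest ratio at that distance was 0.40, that of chr2.

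At longer distances the clusters parted. The chr10 cluster, which lies at its chromosome's end, had more contact with A bins at 20 to 40 Mb (1.01, 0.869, 1.33 and 1.31 on 16 bin pairs) and at 40 to 80 Mb (0.656, 0.648, 0.781 and 0.827). The chr2 cluster kept a higher contact with A bins in L1 AMO at all 6 distance bands, with log2 ratios of 0.20 to 0.44. B bins at 10 to 20 Mb were lower without overlap in 5 of 7 clusters and in 38.8% of the other B segments. Among the clusters the drop was largest in chr7 (1.204, 1.207, 1.034 and 1.064), while chr10 was higher. B bins at 40 to 80 Mb were higher without overlap in 5 of 7 clusters and in 62% of the other B segments, for example in chr9 (1.02, 1.03, 1.12 and 1.14).

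**Figure D5:**
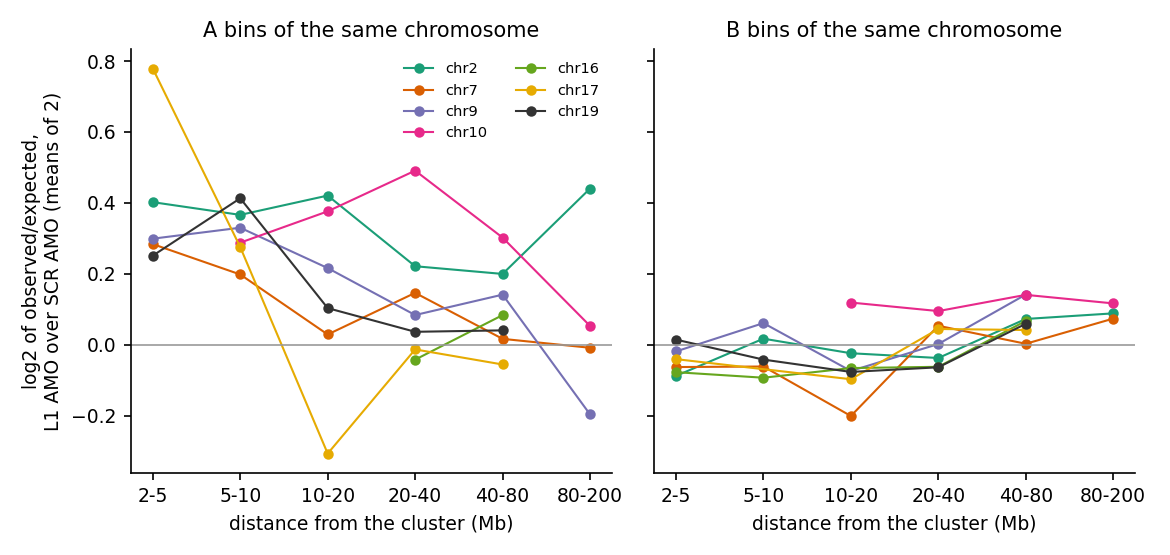
Log2 ratio of observed/expected contact, L1 AMO over SCR AMO (y axis, means of 2 samples each), of each OR cluster with A bins (left) and B bins (right) of its own chromosome, by distance (x axis, Mb; bands with fewer than 10 bin pairs left out). Ratios with A bins are above 0 up to 10 Mb, from 0.20 to 0.78, while those with B bins at 2 to 5 Mb stay between -0.09 and 0.01, and chr17 drops to -0.31 with A bins at 10 to 20 Mb.

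Contact within the clusters, between different bins of the same array, was slightly lower. The mean log2 observed/expected over the clusters was 0.323 and 0.305 in SCR AMO and 0.252 and 0.226 in L1 AMO, a difference of -0.07 (range -0.10 to -0.05). It was lower without overlap in 5 of the 7 clusters, most in chr9 (1.495, 1.514, 1.343 and 1.311 as observed/expected), and in 77.1% of the other B segments. Without balancing 3 of the 7 clusters (chr7, chr9 and chr17) were lower without overlap, and the difference of the mean was -0.04. The chr10 cluster (1.35, 1.24, 1.31 and 1.29) and the chr19 cluster overlapped. The chr16 cluster was the only cluster with internal contact below the mean of its chromosome at that distance, at 0.959, 0.939, 0.920 and 0.928. In the chr10 and chr16 clusters, of 2 bins each, the value is that of a single pair of neighbouring bins.

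The fit of counts of segment pairs on the same autosome gave calls for single partners. Of 237 pairs of an OR cluster and another segment, 52 rose and 29 fell at an FDR of 0.05 by edgeR with Benjamini-Hochberg adjustment. Over all 13358 pairs 43.7% were called, with 22.2% higher and 21.5% lower. Other B-B pairs rose in 30.6% and fell in 7.61% of cases, and other A-B pairs rose in 24.2% and fell in 16.5%. Without TMM normalization the split among the 237 pairs turned to 24 higher and 55 lower, and the median of all pairs moved from -0.02 to -0.16. Over all 13358 pairs the split was then 1871 higher and 4533 lower. Without SCR AMO 1, the deepest sample, the median log2 fold change was 0.03 for the 237 pairs and -0.01 for all pairs, and fewer were called in both. Within 10 Mb of a cluster, 17 of 20 A segments and 16 of 24 B segments rose, with medians of 0.41 and 0.24. For other B segments 66.8% of the A partners and 78.8% of the B partners at these distances rose. After an offset that removes the mean change with distance, 11 of the 20 A segments and 1 of the 24 B segments were called higher, beside 23.9% and 23.6% for other B segments.

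Single partners show where these changes lay, and adjusted p-values below are from the same edgeR fit. Observed/expected of single partners is of raw counts, without balancing, over the chromosome's raw mean at the same distances. The chr2 cluster rose most with the A segment at 90.5 to 94 Mb, just beyond the end of the array. Its observed/expected was 0.559 and 0.556 in SCR AMO and 0.703 and 0.696 in L1 AMO (log2 fold change 0.64, adjusted p = 3.28e-21). The chr19 cluster rose most with the A segment at 10 to 11 Mb (0.695, 0.726, 0.895 and 0.949, log2 fold change 0.76), and the chr7 cluster with that at 116.5 to 121.5 Mb (log2 fold change 0.46). The chr10 cluster rose most with an A segment at 87.5 to 88.5 Mb (log2 fold change 0.63), and the chr17 cluster with a B segment at 9 to 10 Mb (log2 fold change 0.67). For the chr9 and chr16 clusters the largest rises were with B segments at 32 to 36.5 Mb and 44.5 to 57 Mb (0.41 and 0.32). With the distance offset the last 2 were 0.05 and 0.00. The rises of chr2, chr19 and chr7 were then 0.32, 0.38 and 0.14. Those of chr10 and chr17 were 0.71 and 0.64.

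The deepest fall was between the chr17 cluster and the A segment at 56 to 57.5 Mb. Its observed/expected went from 2.16 and 2.21 in SCR AMO to 1.26 and 1.09 in L1 AMO, with 255 and 176 contacts left in L1 AMO (log2 fold change -1.08, adjusted p = 2.84e-18). On raw counts, this A segment was in contact with a B array above the expected level in all 4 samples. Median raw coverage was higher for A bins (1.08 to 1.17 of the chromosome's median) than for OR bins (0.848 to 0.924). The other named falls were at long range or small. The chr7 cluster fell with an A segment at 16.5 to 18 Mb (-0.77), the chr9 cluster with one at 113.5 to 116 Mb (-0.54) and the chr10 cluster with one at 17.5 to 25.5 Mb (-0.47). The chr2 cluster fell with an A segment at 22.5 to 23.5 Mb (-0.36, adjusted p = 0.0497) and the chr19 cluster with a B segment at 30 to 32 Mb (-0.26). With the distance offset these 5 ranged from -0.03 to -0.27 and none was called, while the chr17 fall was -0.88 and was called. The chr16 cluster had no called fall.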

How the data were processed

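Hi-C contacts were measured by sisHi-C in mouse embryonic stem cells, in 2 SCR AMO and 2 L1 AMO samples. The matrices deposited by the authors hold raw counts of read pairs for bins of 500 kb on mm9, from HiC-Pro (2.7.1b per the submitters' processing notes). Each L1 AMO sample has 2 matrices, which were added. Mapping options and removal of duplicates are not given in the sources used here. H3K9me3 ChIP-seq samples were not analysed here, nor was any mm9 annotation. OR genes were counted in RefSeq's GRCm38.p6 list without coordinates.

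The OR clusters and the lists were chosen with earlier results of these data known. Bins below 0.1 of their chromosome's median coverage were dropped, and each map was balanced iteratively (numpy 2.4.6, scipy 1.17.1). Compartments came from eigenvector 1 of the mean map, oriented by the repeat content of chromosome 1. Counts of segment pairs with a mean of at least 10 were tested with edgeR 4.0.16 (quasi-likelihood, TMM, all 4 samples, Benjamini-Hochberg over all pairs, FDR 0.05), with DESeq2 1.42.0 as an alternative. For other measures an exact permutation test was used, two-sided, with 2 samples per group. These permutation p-values reflect only how the 4 values divide between the groups, and do not measure their spread. The text names the 3 highest, the 3 lowest, the 3 most raised and the 3 most lowered pairs of clusters, and for each cluster the called partner of at least 1 Mb with the largest rise and fall. Depth was 22252054 to 112381720 contacts per sample, and 269 to 1110 contacts joined OR bins of different chromosomes. Alternatives changed the balancing, matrices, samples, coverage minimum, compartment labels, expected value, cluster limits, distance limits, normalization and count filter. Scripts were tested on simulated data. In 4 simulated matrices the largest error was 5.75% for OR-OR over B-B and 4.88% for B-B over A-B.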

Additional observations from a re-analysis of the deposited data

Results flagged for a closer look

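Trans contact with the other OR clusters differed in direction between clusters under the same contrast. In the chr9 cluster (log2 ratio 0.17, or 0.173 to 3 digits) and the chr19 cluster (0.28, or 0.279) the L1 AMO samples were higher without overlap. In the chr10 cluster (-0.18, or -0.178) they were lower without overlap. The difference between the clusters was not tested. Scaled to all contacts, an alternative chosen after seeing the data, the 3 ratios were -0.35, -0.24 and -0.71, so that the opposite signs hold only relative to the other contacts between chromosomes. The chr10 values rest on a 2-bin cluster near its chromosome's end, and they overlapped without balancing, with the value of each pair of chromosomes as the expected one and with either L1 AMO matrix alone. The chr9 values overlapped without balancing (0.0868) and with the first L1 AMO matrix alone.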

How the results depend on the processing

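Limits: 2 samples per group cannot reach a p below 0.333, single pairs of clusters rest on few contacts, and bins of 500 kb do not separate the genes of an array. The log2 ratio of OR-OR contact overlapped between groups and changed sign with contacts between chromosomes balanced alone (-0.0299), with the first L1 AMO matrices (-0.00746) and without the 2 largest clusters (-0.00937). It was -0.48 scaled to all contacts, and ran from -0.0443 to 0.133 with 1 sample left out (the lowest without SCR AMO 1). OR-A contact ran from -0.0680 to -0.0244 with 1 sample left out. OR-OR over B-B was -0.20 without balancing, -0.14 with the first matrices and -0.13 with limits widened by 1 bin, where the groups did not overlap, and -0.164 to -0.0115 with 1 sample left out. OR-A contact overlapped with trans balancing alone (-0.0111) and with each pair of chromosomes scaled to its own mean (-0.00148). The cis share beyond 5 Mb (-0.0555 points) and the B over A preference without balancing (-0.0353) overlapped too. Of 258 alternatives of single clusters, 12 changed the sign of a difference whose groups overlapped, and 5 that of one whose groups did not: chr9 (-0.35) and chr19 (-0.24) trans contact scaled to all contacts, chr16 preference (0.0115) and contact within (0.0253) without balancing, and chr10 preference with widened limits (0.0598). Apart from these 5, 205 moved by less than the spread between samples and 48 by more. The trans fit called 0 cluster pairs, except 4 with the totals of all contacts. The cis fit called 43 pairs by DESeq2 (33 higher, 10 lower), 24 higher and 55 lower without TMM, 18 lower with the second matrices and 8 lower with the distance offset. With 1 sample left out it called 40 to 84 (26 to 58 higher, 14 to 26 lower), with the lowest counts without SCR AMO 1. The cause of these moves was not tested.

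The labels give both groups replicate numbers 1 and 2 without saying what they share, and deviations of same-numbered samples correlated by 0.0323 in trans and 0.0886 in cis. With the number as a replicate block, the cis fit called 86 cluster pairs (55 higher, 31 lower), beside 6139 of all 13358 pairs. The trans fit called 0 cluster pairs, beside 14325 of all 144490 pairs. The differences of the 6 measures kept their direction (0.04 for OR-OR contact).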

Other observations

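A single A bin of another chromosome stood out among the partners of the OR bins, and was chosen after its values were seen. The bin at 20 to 20.5 Mb of chromosome 12 (mm9) had an observed/expected of 4.62 in SCR AMO and 7.62 in L1 AMO with the OR bins, against 0.98 and 0.93 with other B bins. The chr7 cluster carried it, with 148, 34, 91 and 74 contacts in SCR AMO 1, SCR AMO 2, L1 AMO 1 and L1 AMO 2 and an observed/expected of 11.3, 12.98, 20.0 and 23.9. No other cluster had more than 8 contacts with it in any sample. Within the chr7 cluster the contact peaked at 110.5 to 111 Mb (50, 15, 37 and 30 contacts, observed/expected 59.5, 86.5, 125 and 149). It was lower at the next bin on either side, at 25.6, 22.2, 25.1 and 31.0 below the peak and 13.4, 13.4, 37.4 and 30.1 above it. Relative to the other contacts between chromosomes, L1 AMO had the higher observed/expected at the peak and over the whole cluster, without overlap. As a share of all contacts of a sample, the count of the peak in SCR AMO 2 lay above those of L1 AMO 1 and L1 AMO 2.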
